A study of Mus musculus with 2 samples.

Results

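Fragments of the 45S ribosomal RNA precursor were taken from the small RNA of fetal mouse testes as the sequences of 16 to 48 nt that match, exactly and on either strand, a transcript of Gm42418, Gm26917 or AY036118. These are 3 of the 55450 genes with a transcript in GENCODE release M21. They accounted for 15904 of the 1031823 distinct sequences of that length, 12120 of them in the wild-type (WT) library and 10736 in the Hsp90α KO library. Small RNA was sequenced once per genotype, from 20 pooled testes of C57BL/6 WT embryos and 20 pooled testes of C57BL/6 Hsp90α KO embryos, all at embryonic day 16.5 (E16.5). The whole testis was used, so that somatic and germ cells were both present, and the WT embryos carried no treatment or other allele that the labels name. HSP90α is a cytosolic chaperone, and the study asked how its loss affects the small RNAs of the fetal testis.

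RNA polymerase I transcribes the 45S precursor, which carries the 18S, 5.8S and 28S rRNAs between spacers. The 5′ external transcribed spacer (5′ETS) precedes 18S, and the first internal transcribed spacer (ITS1) follows it. The spacers are cut away and degraded in the nucleolus, whereas the mature rRNAs are stable and make up most of the RNA of a cell, so that pieces of them are found in most small RNA libraries.

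The 3 genes are annotated as long non-coding RNAs on 1 stretch of chromosome 17 (GRCm38). Gm26917 lies at chr17:39843013-39846341 on the plus strand, and by its position, ending 11 nt before 18S, it covers 3329 nt of the 5′ETS. Gm42418 lies at chr17:39846958-39848788 on the plus strand. Its 1831 nt are the last 1244 nt of 18S (positions 606 to 1849, 67.3% of the 18S sequence used here) and then 587 nt of ITS1. AY036118 lies at chr17:39847113-39848035 on the minus strand, wholly inside 18S positions 761 to 1683, so that every sequence matching it also matches Gm42418 on the other strand. Positions in 18S are counted from the first of the 1849 nt on chromosome 17 that are taken here as 18S. These are the span of the annotated transcript CT010467.1, which runs against them and is not one of the 3 genes. The 28S and 5.8S rRNAs are not covered by these genes. In what follows, sense means the strand of the 45S precursor.

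The fragments on which the results turn are given here, 5′ to 3′, with their position in GRCm38. The first 5 are the most-read sequences of leading 5′ ends on 18S, with the first base in capitals. They are followed by the stretch around the most used 3′ end, where capitals mark the 6 bases that come next in the rRNA. The last 3 are the junction of 18S (capitals) with ITS1, the most-read antisense fragment and the most-read 5′ETS fragment of 30 nt or less, the latter pair with the first base in capitals.
5′ end at 18S position 844, chr17:39847196-39847224, plus strand: Agccgcctggataccgcagctaggaataa
5′ end at 18S position 1384, chr17:39847736-39847762, plus strand: Taacgaacgagactctggcatgctaac
5′ end at 18S position 1386, chr17:39847738-39847757, plus strand: Acgaacgagactctggcatg
5′ end at 18S position 1389, chr17:39847741-39847757, plus strand: Aacgagactctggcatg
5′ end at 18S position 1271, chr17:39847623-39847639, plus strand: Cacccggcccggacacg
3′ end at 18S position 872, chr17:39847209-39847236, plus strand: ccgcagctaggaataaTGGAATaggacc
Junction of 18S and ITS1, chr17:39848187-39848216, plus strand: GCGGAAGGATCATTAacgggagactgtgga
Antisense to 18S, chr17:39847685-39847708, minus strand: Ccaactaagaacggccatgcacca
5′ETS, chr17:39843973-39843994, plus strand: Agggctcgccccctgaccgcct

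The WT library held 6409305 reads and the KO library 5589326 reads, of which 5857980 and 5024225 were 16 to 48 nt long. Counts were normalized to reads lying inside annotated miRNA hairpins on the sense strand, 2523084 in WT and 2561491 in KO, and are given per 1000000 miRNA reads (RPM), a scale on which 3 reads are 1.19 in WT and 1.17 in KO. A KO/WT ratio is the quotient of the normalized counts, with its 95% interval from an exact conditional binomial calculation. Because each genotype has 1 library, no difference has a replicate check, and the intervals cover the counting of reads only. In bulk testis fewer cells of a type and less RNA per cell cannot be told apart. Reads in sense to Hsp90aa1, the gene of HSP90α, numbered 22 in WT and 37 in KO (ratio 1.66, interval 0.952 to 2.95), and the deleted part of the gene is not given in the sources used here, so that these reads check nothing about the label. The gonad miRNA gene Mir202 had 5037 and 5466 reads. Of 9 listed testis and germ cell miRNA genes, 8 had 10 reads or more in each library, and Mir292a was not in the annotation and could not be counted. Of 11 miRNA genes of liver, muscle, brain and red blood cells, 8 had 10 reads or more in WT and 7 in KO, led by Mir451a of red blood cells with 578 and 495.

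The 45S fragments were nearly all pieces of 18S in sense, and their total was slightly lower in KO. There were 87795 such reads in WT and 79222 in KO, that is 1.499% and 1.577% of the reads of 16 to 48 nt. This was 34797 RPM in WT and 30928 in KO, a KO/WT ratio of 0.889 (0.880 to 0.897). Normalized to all reads of 16 to 48 nt the direction turned, with a ratio of 1.05 (1.04 to 1.06). None of the 3 genes was 1.5-fold higher or lower in KO by either scale. Among 7535 genes with at least 100 reads, 0.119% were at least 1.5-fold higher and 87% at least 1.5-fold lower in KO per miRNA read, where genes that share repeat sequence share reads.

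The reads of Gm42418 numbered 86138 in WT and 77615 in KO, and their ratio was 0.888 (0.879 to 0.896). AY036118 shared 73994 and 65774 of the same reads, but only 66 and 40 of them lay on its own strand. Gm26917 had 1657 and 1607 reads, and its ratio, 0.955 (0.891 to 1.02), has an interval that includes 1. Thus the reads of AY036118 were, apart from those few, reads of 18S on the opposite strand.

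The KO/WT ratio varied more with length than with region. Fragments of 16 to 27 nt were at 22806 RPM in WT and 22995 in KO, a difference within the counting error (ratio 1.01, 0.997 to 1.02). Fragments of 28 to 48 nt were at 11990 and 7933, a ratio of 0.662 (0.650 to 0.674). By class, the ratio was 0.995 (0.976 to 1.01) at 16 to 19 nt, 1.03 (1.01 to 1.05) at 20 to 23 nt and 0.9998 (0.979 to 1.02) at 24 to 27 nt. It was 0.823 (0.807 to 0.840) at 28 to 33 nt and 0.328 (0.316 to 0.342) at 34 to 48 nt. The ratio of the longest class was thus 0.330 of that of the shortest (0.316 to 0.345).

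At single lengths the decline was gradual. The level at 22 nt was 2125 RPM in WT and 2205 in KO, and at 30 nt 949 and 783. At 36 nt it was 547 and 204, and at 40 nt 304 and 38.3. The mean fragment length was 25.04 nt in WT and 23.65 nt in KO.

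**Figure D1:**
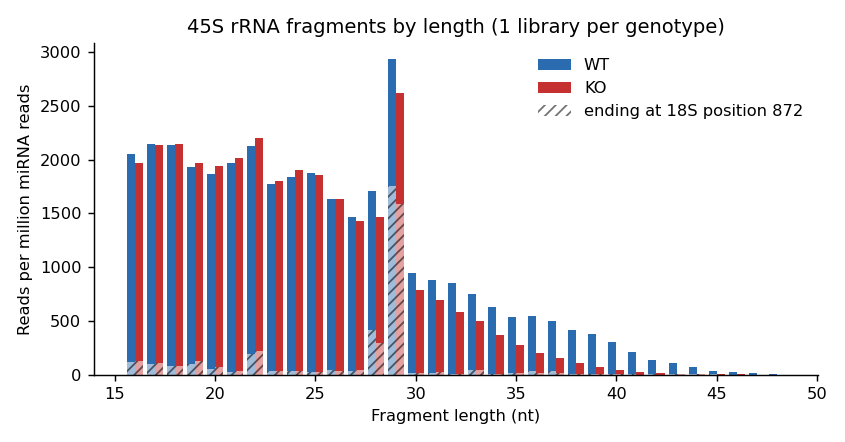
Bars show 45S fragments of each length from 16 to 48 nt (x axis, nt) in RPM (y axis) in the WT and KO libraries, with 1 library per genotype. Hatching marks fragments ending at 18S position 872, which make up 1759 of 2935 in WT and 1591 of 2622 in KO at the 29-nt peak, and beyond 30 nt the KO bars drop away from the WT bars.

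Other reads of the same lengths were compared, since the libraries differed in length as a whole. Of the WT reads between 16 and 48 nt, 5.40% were longer than 33 nt, against 1.95% in KO. Reads that were neither miRNA nor 45S fragments had ratios of 0.966, 0.955, 0.759, 0.541 and 0.304 over the 5 length classes, from the shortest to the longest. At 34 to 48 nt the 45S fragments were therefore 1.08 times the other reads (quotient interval 1.04 to 1.12), and miRNA-hairpin reads of these lengths had a ratio of 0.290 (0.255 to 0.330). At 28 to 33 nt the 45S fragments were 1.52 times the other reads (1.49 to 1.55), and at 24 to 27 nt 1.32 times (1.29 to 1.35). The miRNA-hairpin reads had ratios of 0.415 (0.395 to 0.436) at 28 to 33 nt, from 5400 and 2273 reads, and 1.02 (1.01 to 1.02) at 24 to 27 nt. Against them the 45S fragments were 1.99 times at 28 to 33 nt (1.88 to 2.09) and 0.982 times at 24 to 27 nt (0.960 to 1.003). Reads of 24 to 33 nt include the piRNAs of the fetal testis, so that the other reads of these lengths are not a set without piRNAs. At all lengths the other reads also hold pieces of 18S that match none of the 3 genes exactly. Among these were 31374 sense reads in WT and 28719 in KO from 18S outside the genes. The 605 nt of 18S outside the 3 genes, which the same rRNA molecule supplies, had ratios of 0.790 (0.760 to 0.820) at 28 to 33 nt and 0.328 (0.304 to 0.353) at 34 to 48 nt. The length of the reads of each library as a whole moved with the ratio, and its part in the result was not tested.

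**Figure D2:**
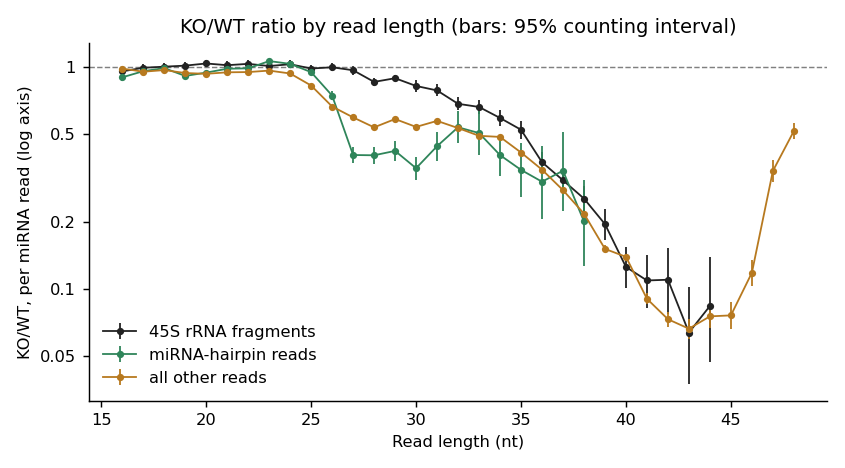
Points show the KO/WT ratio per miRNA read (y axis, log scale) at each read length (x axis, nt) for 45S fragments, miRNA-hairpin reads and all other reads, with 95% counting intervals, where a class has at least 100 reads. The 45S fragments stay near 1 up to 27 nt and lie above the other reads at each length from 17 to 39 nt. They decline with them to 0.126 at 40 nt, where the other reads are at 0.140.

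By region, 18S far exceeded the spacers, and the regions differed little between genotypes. Sense reads of 18S within Gm42418 numbered 85651 in WT and 77181 in KO, which is 97.6% and 97.4% of the 45S fragments. In RPM per kilobase, 18S stood at 27289 in WT and 24221 in KO, the 5′ETS at 196 and 186, and ITS1 at 223 and 217. On this scale 18S was 140 and 130 times the 5′ETS, and 122 and 112 times ITS1. The 18S sequence outside the genes was at 20553 and 18532, so that both stretches of the rRNA were represented.

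The spacer fragments, which come only from the precursor or its discarded parts, had ratios of 0.949 (0.885 to 1.02) for the 5′ETS and 0.970 (0.830 to 1.13) for ITS1, from 1643 and 1583 reads and from 331 and 326 reads. Both intervals include 1. The 5′ETS ratio was 1.07 times that of 18S (0.997 to 1.15) and the ITS1 ratio 1.09 times (0.938 to 1.27), so that a difference between spacer and mature rRNA was not detectable at this depth. The dependence on length was seen in the spacer too. The 5′ETS ratio was 1.03 (0.949 to 1.11) at 16 to 27 nt and 0.695 (0.592 to 0.814) at 28 to 48 nt. For ITS1 these were 1.16 (0.970 to 1.39) and 0.541 (0.383 to 0.756). At 28 to 33 nt alone the ratios were 0.937 (0.775 to 1.13) for the 5′ETS and 0.841 (0.541 to 1.30) for ITS1, with intervals that include 1. The decline in the spacers was thus seen at 34 to 48 nt, with 0.330 (0.236 to 0.457) from 152 and 51 reads and 0.274 (0.143 to 0.492) from 54 and 15.

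Spacer fragments were also scattered. The 5′ETS reads fell on 1283 5′ ends and 2408 distinct sequences, and the most-read sequence, the 22-nt fragment printed above, had 24 reads in WT and 22 in KO. ITS1 had 522 distinct sequences, none with more than 10 reads in either library. The leading 5′ end of the 5′ETS, at nucleotide 1312 of Gm26917, held 36 of its reads in WT and 18 in KO.

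**Figure D3:**
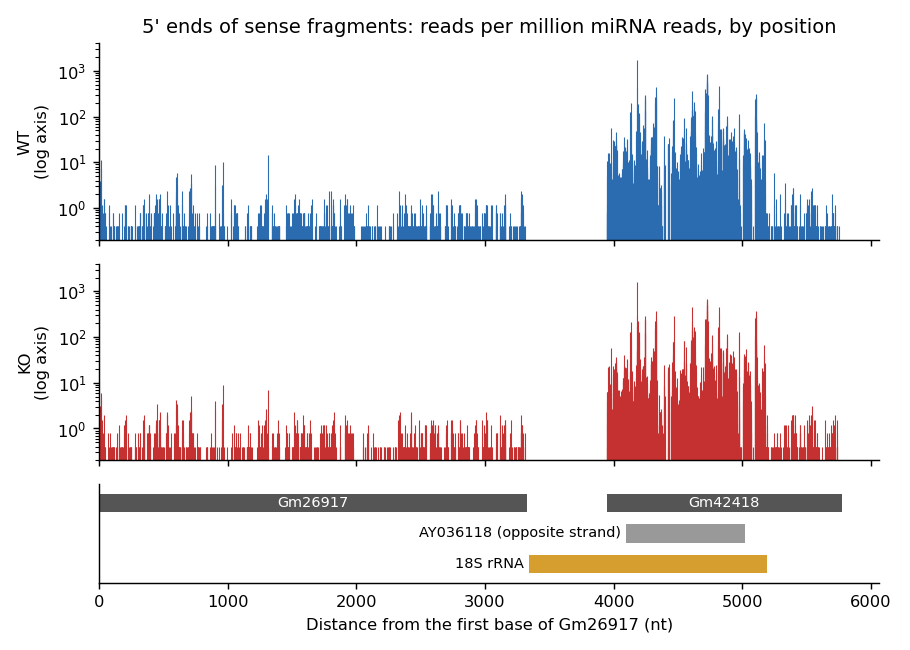
Vertical lines show sense reads in RPM (y axis, log scale) by the position of their 5′ end along the locus (x axis, distance in nt from the first base of Gm26917), for WT above and KO below. Bars underneath mark the 3 genes and 18S rRNA, and the 18S part of Gm42418 stands far above the 5′ETS and ITS1 in both libraries. The gap between the genes is the part of 18S that none of them covers.

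The end of 18S could be followed across its junction with ITS1. Fragments ending exactly at the last base of 18S numbered 438 in WT and 393 in KO (ratio 0.884, 0.769 to 1.02). Fragments running across into ITS1, which come from RNA not yet cut at this site, numbered 63 and 53 (0.829, 0.564 to 1.21). Of both kinds together, 12.6% crossed in WT (95% Wilson interval 9.95 to 15.8) and 11.9% in KO (9.20 to 15.2), so that these shares differed by less than the counting error. Only 2 and 5 reads started at the first base of ITS1.

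Small nucleolar and related RNAs that act in cutting the precursor were read from a list of 15. Of these, 11 had at least 20 reads in the 2 libraries together, with a median KO/WT ratio of 0.920. Over all 10592 genes with that many sense reads the median was 0.420, and over the 185 snoRNA and scaRNA genes among them 0.722. U8, encoded by Snord118 and needed for the 5.8S and 28S side of the precursor, had 310 reads in WT and 203 in KO (0.645, 0.538 to 0.772). It was the 1 RNA of the list whose interval lay below 1, and none lay above 1. Of all genes with 20 sense reads or more, 66.4% had an interval below 1 and 1.31% above 1, and of the snoRNA and scaRNA genes 44.3% and 1.08%. The members of the list are not independent, since 5 of the 11 are genes of U3. Fragments of Rnu3b1, a gene of the U3 RNA that is needed for the cuts around 18S, numbered 382 and 361 (0.931, 0.804 to 1.08), and the copies of U3 share reads. For the RNA of RNase MRP, Rmrp, there were 43 and 28 reads (0.641, 0.384 to 1.06).

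Fragments of other rRNAs had the same direction with length. The 5S rRNA, which is transcribed apart from 45S by RNA polymerase III, had 5711 reads in WT and 5936 in KO (1.02, 0.987 to 1.06), with 1.15 (1.10 to 1.20) at 16 to 27 nt and 0.545 (0.495 to 0.601) at 28 to 48 nt. The mitochondrial rRNAs mt-Rnr1 and mt-Rnr2 had 2018 and 1632 reads together (0.797, 0.746 to 0.851), with 0.916 (0.853 to 0.983) and 0.324 (0.265 to 0.395) at the same lengths. The annotated 5.8S rRNA gene had 4 reads and 1 read by exact match, too few to judge fragments of 5.8S, and 28S was not analysed here.

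The fragments were sense in 99.88% of reads in WT (99.85 to 99.90) and 99.90% in KO (99.88 to 99.92). Antisense reads numbered 107 in WT and 79 in KO, a ratio of 0.727 (0.537 to 0.982), which was 0.818 times the sense ratio (0.612 to 1.09). Of the antisense reads, 79 of 107 in WT and 71 of 79 in KO were 24 to 33 nt long, and none was longer than that. Their ratio was 0.885 (0.633 to 1.24) at 24 to 33 nt and 0.281 (0.111 to 0.634) at 16 to 23 nt, from 28 and 8 reads. By region it was 0.608 (0.419 to 0.876) for 18S, 0.394 (0.0902 to 1.37) for ITS1 and 1.69 (0.839 to 3.53) for the 5′ETS. The antisense ratio as a whole thus joins unlike parts. The antisense reads of 24 to 33 nt began with U in 48.1% of reads in WT (37.4 to 58.9) and 49.3% in KO (38.0 to 60.7), and with C in 36.7% and 38.0%. The most-read antisense fragment, printed above and beginning with C, had 15 reads in WT and 11 in KO. The antisense reads thus differed from the sense reads in length and first base, but they were few and came from 77 and 60 distinct sequences.

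Over all sense fragments, which are mostly of 18S, first bases did not favour U, the base with which most piRNAs begin. At 24 to 33 nt, 17.8% of the 45S fragments began with U in WT (17.4 to 18.2) and 17.7% in KO (17.3 to 18.1), whereas U makes up 22.03% of the 18S sequence of Gm42418. Among sense fragments of the 5′ETS alone the share was 26.9% in WT (23.3 to 30.8, 144 of 536 reads) and 27.5% in KO (23.7 to 31.6, 134 of 488 reads), and U makes up 22.6% of that sequence in Gm26917. Other reads of these lengths began with U in 42.8% of cases in WT and 39.1% in KO. The most common first base was A at 28 to 33 nt (41.2% in WT and 43.0% in KO) and C at 16 to 19 nt (41.9% and 44.8%). In the 18S sequence A makes up 22.9% and C 25.3%. Other reads began with C still more often at 16 to 19 nt (47.1% in WT and 49.4% in KO), so that this was not particular to the 45S fragments. With A they began in 11.1% and 11.8% of cases at 28 to 33 nt. The high share of A at 28 to 33 nt was not seen without the fragments that end at position 872. Without them A was at 26.99% in WT and 27.03% in KO, and the U share at 24 to 33 nt was 21.21% and 21.03%.

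**Figure D4:**
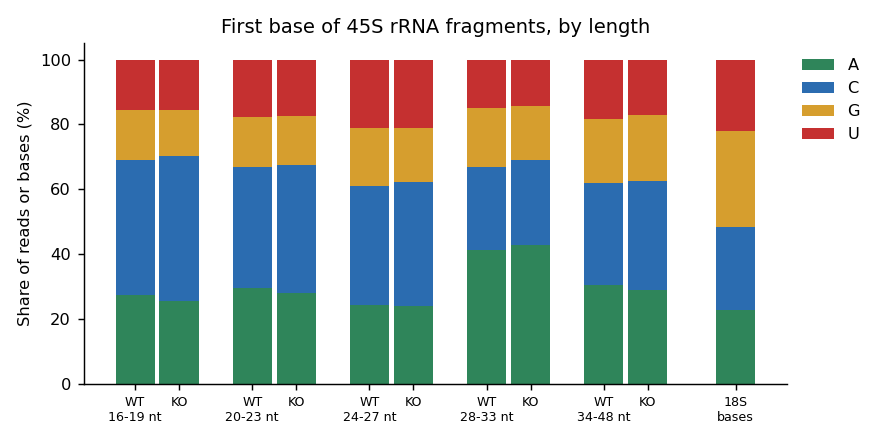
Stacked bars show the share of 45S fragments (y axis, %) beginning with A, C, G or U in 5 length classes for WT and KO, beside the base composition of the 18S part of Gm42418. The genotypes look alike within each class, U stays at or below its share in 18S, and A is widest at 28 to 33 nt, with 41.2% in WT and 43.0% in KO.

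A small number of 5′ ends on 18S supplied many of the reads. The 10 leading 5′ ends held 18428 reads in WT and 16218 in KO, 20.99% and 20.47% of the 45S fragments, although 1123 of the 1244 positions of 18S in Gm42418 were used by at least 1 read. The first, at position 844, held 4461 reads in WT and 4093 in KO (0.904, 0.866 to 0.943), and 99.5% and 99.6% of them were the single 29-nt sequence printed above. Of the 10, 7 lay among 8 adjoining positions, 1383 to 1390, which together held 12973 reads in WT and 10738 in KO, or 14.8% and 13.6% of all the fragments. At each of these 7 ends the length was spread from 16 nt to between 43 and 48 nt, unlike at position 844.

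The adjoining ends were lower in KO, with a ratio of 0.815 (0.795 to 0.836) for the 8 together. At position 1389 there were 2128 reads in WT and 1718 in KO (0.795, 0.746 to 0.848), and fragments of 16 to 27 nt at this end had a ratio of 0.896 (0.835 to 0.962) against 0.467 (0.398 to 0.546) for those of 28 to 48 nt. Position 1477 had 1207 and 1154 reads (0.942, 0.868 to 1.02). Position 1271 went the other way, with 924 reads in WT and 1191 in KO (1.27, 1.16 to 1.39), and it was the 1 leading end whose interval lay above 1. Its reads were short, with 906 and 1187 of them at 16 to 27 nt.

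**Figure D5:**
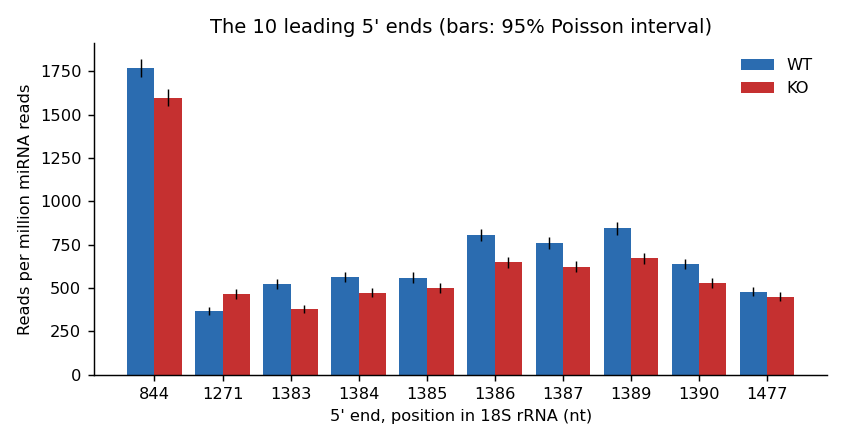
Bars show the level in RPM (y axis) of the 10 leading 5′ ends by their position in 18S (x axis, nt), with 95% Poisson intervals, in WT and KO. WT is the higher bar at 9 of the 10 positions, and KO is higher at 1271.

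The 29-nt fragment belonged to a family with a common 3′ end. Position 872 was the 3′ end of 8077 reads in WT and 7598 in KO, 9.20% and 9.59% of the 45S fragments, in 31 sequences of 16 to 47 nt that differ in their 5′ end. Among them were 286 and 317 reads of 16 nt, 475 and 572 of 22 nt, and 1050 and 745 of 28 nt. The ratio was 1.16 (1.09 to 1.23) for the members of 16 to 27 nt, 0.865 (0.832 to 0.899) for those of 28 and 29 nt and 0.659 (0.574 to 0.755) for the longer ones.

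This 3′ end stands directly before TGGAAT in the rRNA, the only place in the 3 genes with these 6 letters on the sense strand. The 3′ adaptor of the TruSeq small RNA kit begins with the same letters, and the adaptor was clipped from the reads before deposit. At this place 92.3% of the WT reads and 93.7% of the KO reads that reached it stopped before the letters, and 678 and 510 read through them. In transcripts other than these rRNA genes, reads apart from miRNA also stopped in front of TGGAAT more often than in front of any other of the 4096 hexamers. There were 16.4 distinct ends per 1000 occurrences, 8.80 times the median hexamer, and the next hexamer reached 4.87 times. The 3′ end at position 872 and the length of 29 nt can therefore not be told apart from the place where the adaptor was clipped, while clipping leaves the 5′ end of a read as it is. Without these fragments the level at 29 nt was 1176 in WT and 1031 in KO, between those at 28 nt (1291 and 1178) and 30 nt (932 and 765). The ratios moved little without them, to 0.885 (0.876 to 0.894) in total and 0.805 (0.785 to 0.824) at 28 to 33 nt.

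The 5′ ends along 18S were used in much the same proportions in the 2 libraries. The WT and KO distributions of 5′ ends overlapped by 91.1%, by between 89.0% and 89.4% in each class from 16 to 33 nt and by 79.8% at 34 to 48 nt, where KO reads were fewest. Of 208 5′ ends with at least 100 reads of 16 to 27 nt, 4 were at least 1.5-fold higher and 5 at least 1.5-fold lower in KO, and the median ratio was 1.01. Among all distinct sequences of these lengths with at least 100 reads, 2.52% were that much higher and 6.54% that much lower. Of 76 such ends with reads of 28 to 48 nt, 44 were at least 1.5-fold lower and none higher, with a median of 0.628. Among all distinct sequences of 28 to 48 nt with at least 100 reads, 64% were that much lower and 0.543% higher. A 5′ end pools sequences of several lengths, so that shares of 5′ ends and of distinct sequences are unlike units in both comparisons.

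Among distinct sequences, 323 of the 45S fragments had at least 100 reads in the 2 libraries together, and all were sense fragments of 18S. Of these, 7 were at least 1.5-fold higher and 21 at least 1.5-fold lower in KO, with a median of 0.949. Over all 7131 sequences with as many reads, 2.06% were higher and 19.9% lower, with a median of 0.875. At 28 to 48 nt, 16 of 50 fragments were lower and none higher, with a median of 0.806. Of all sequences of these lengths 64% were lower and 0.543% higher, with a median of 0.572. At 16 to 27 nt, 7 of 273 were higher and 5 lower, beside 2.52% and 6.54% of all sequences.

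Few fragments began in 1 stretch of 18S. Between positions 1006 and 1105 only 756 reads in WT and 586 in KO began, or 0.883% and 0.759% of the 18S reads of Gm42418, against 25.16% and 21.995% between 1306 and 1405. At 5 positions nearly every read that covered them carried another base than chromosome 17, in both libraries. With the base of the chromosome first, the position in 18S next and the base of the reads last, these were U1051G, U1074C, A1083G, A1106G and U1758C. The first 3 lie in the sparse stretch. A1106G lies on the first base after it, so that the reads spanning A1106G begin in the sparse stretch or at 1106 itself. The 3346 and 3131 reads that began between 1106 and 1205 therefore say little about A1106G. The stretch that holds U1758C was not as sparse, with 5943 and 6102 reads that began between 1706 and 1805. At U1051G, for example, 1062 of the WT reads and 712 of the KO reads differed, and 3 and 4 matched the chromosome. The sequence around it in the chromosome was the following, with the base in capitals.
18S position 1051, chr17:39847393-39847413, plus strand: aaagtcggagTttcgaagacg
An exact match to these genes therefore leaves out the 18S fragments that span such a position, in WT and KO alike. When 1 mismatch was allowed, the total KO/WT ratio was 0.888 (0.880 to 0.896). A read that differs at more than 1 of these positions, such as at U1074C and A1083G, was still left out there and in the counts of differing reads.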

How the data were processed

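Total RNA was extracted with Isogen from pooled testes and made into libraries with the TruSeq Small RNA kit, which were read from 1 end over 50 bp on a MiSeq. Per the study's methods the authors clipped the adaptor and kept reads of more than 10 nt, and the deposited values are raw counts per distinct sequence of 11 to 48 nt, with no normalization. The submitters name the mm9 build, but the files hold no coordinates. The clipping tool and its settings are not given in the sources used here. No column of values was left unused (0).

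An exact match on either strand was sought for each sequence of 16 nt or more in GENCODE M21 (GRCm38), which holds 141767 transcripts, 2202 of them miRNA hairpins. None of the 3 genes holds a miRNA hairpin (0). Every 45S fragment matched at 1 position only of the stretch that the 3 genes cover. Nearly all 18S and ITS1 fragments (but for 30 reads of ITS1 in WT and 16 in KO) also match CT010467.1 on the other strand. Of the 12860 distinct 18S fragments, 61 also match a gene other than CT010467.1 and the 3 genes. Depth was 6409305 reads in WT and 5589326 in KO. Ratios of normalized counts have exact conditional binomial (Clopper-Pearson) 95% intervals, in which the error of the miRNA total is not included. Quotients of ratios have 95% intervals on the log scale, shares have Wilson intervals and levels Poisson intervals. PCR copies cannot be told from molecules. With 1 library per genotype no test over replicates was made and no p-value is given.

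The genes named are the 3 members, the other rRNAs, the listed RNAs of precursor cleavage with 20 reads or more, the Hsp90 genes and marker miRNA genes. The fragments named are the 10 5′ ends with the highest summed level, each by its most-read sequence, and a fold of 1.5 was counted only with 100 reads or more. Members, lists and length classes were chosen with earlier results of these data known. The 3′ family, the TGGAAT count and the base differences, and 3 alternatives (fragments of 27 nt or less, other reads of the same length as the normalizing total, and leaving out fragments before TGGAAT), were chosen after seeing the data. Base differences were read from sequences of 20 nt or more with 1 mismatch to 18S, leaving out 3 bases at each end, at positions with 100 reads or more. Hexamers were counted after the 3′ ends of reads of 18 nt or more, by their last 16 nt. Other alternatives covered the normalizing total, reads or distinct sequences, a minimum of 10 reads, multiple matches, the leading sequence, a minimum of 18 nt and 1 mismatch. Intervals and matching were tested on simulated data and by a separate lookup. The scripts ran in Python 3.11.15 with scipy 1.17.1 for intervals, numba 0.67.0 for matching, pandas 2.3.3 and numpy 2.4.6 for counts, and figures came from matplotlib 3.10.9.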

Additional observations from a re-analysis of the deposited data

How the results depend on the processing

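No paired analysis was possible because each genotype has 1 library. Another total for a whole library moves all length classes by the same factor, so that the decline with length does not depend on it, whereas the side of 1 does. Normalized to all reads of 16 to 48 nt, the ratio was 1.05 in total, 1.05 for sense fragments, 1.05 for Gm42418, 1.13 for Gm26917, 1.04 for AY036118, 1.18 at 16 to 19 nt and 1.18 at 24 to 27 nt, all above 1, and 0.861 for antisense fragments. Fragments of 27 nt or less gave 1.01 in total, 1.01 for sense fragments, 1.01 for Gm42418, 1.03 for Gm26917 and 0.9999 for AY036118. Normalized to other reads of the same length, the ratio was above 1 at 16 to 19 nt (1.03), 24 to 27 nt (1.32), 28 to 33 nt (1.52) and 34 to 48 nt (1.08). Without Mir10b among the miRNA reads it was 0.981 at 16 to 19 nt, with an interval below 1, and 1.01 at 20 to 23 nt, with an interval that includes 1. Counting each distinct sequence once gave 1.02 at 16 to 19 nt, 1.005 at 20 to 23 nt and 0.768 for antisense fragments. With 10 reads or more per sequence it was 0.722 for antisense fragments and 0.564 for Gm26917, and without the most-read sequence 0.728 for antisense fragments and 1.003 at 24 to 27 nt. Normalized to reads of 20 to 23 nt it was 1.004 at 16 to 19 nt and 1.009 at 24 to 27 nt.

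Sequences matching no other gene were essentially those of the 5′ETS, since nearly all 18S and ITS1 fragments also match CT010467.1, and AY036118 had none. For Gm42418 they left 30 reads in WT and 16 in KO, all of ITS1, with a ratio of 0.525 (0.267 to 0.995). In all, they gave 0.945 in total, 0.939 for sense fragments, 1.08 at 16 to 19 nt, 1.07 at 20 to 23 nt, 0.940 at 28 to 33 nt and 1.69 for antisense fragments. The share beginning with U at 24 to 33 nt was, in WT and KO, 22.7% and 22.4% over distinct sequences, 16.6% and 16.6% with 10 reads or more, 27.4% and 28.7% in sequences matching no other gene, 20.2% and 20.1% without the most-read sequence, and 21.21% and 21.03% without fragments ending before TGGAAT. The sense share was 99.4% and 99.4% over distinct sequences, 99.98% and 99.98% with 10 reads or more, and 99.2% and 98.5% in sequences matching no other gene. The cause of these changes was not tested, beyond the fewer sequences or other total that define each setting. The other 79 values lay on the reported side of 1, with an interval that excluded 1 where the reported one did and included it where that did, or stayed inside the interval of the share. The spacers, with 331 and 326 reads of ITS1, and the antisense reads are limited by depth.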

Other observations

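At 1 further position of 18S, 1255, reads with another base than chromosome 17 were frequent without being the rule. C in place of U was the most common difference there (U1255C). Reads that differed made up 58.8% of those covering it in WT (95% Wilson interval 54.3 to 63.2), 280 against 196, and 50.5% in KO (44.8 to 56.2), 147 against 144. Of the differing reads, 258 in WT and 134 in KO had C, 16 and 6 had G, and 6 and 7 had A. This uridine lies in a stretch of 18S in which a hypermodified uridine is known in mammals. The chromosome reads as follows there, with the base in capitals.
18S position 1255, chr17:39847597-39847617, plus strand: ttaatttgacTcaacacggga

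At 673 positions with at least 100 reads in each library, at least 1 read differed from the chromosome. Over these positions the median share of differing reads was 0.158% in WT and 0.139% in KO. Positions without a differing read are not in this median, and 986 positions had at least 100 exactly matching reads in each library. Near the end of 18S, 21 reads in WT and 5 in KO lacked 2 adjoining bases, placed here at positions 1827 and 1828. Beside them 79 and 34 reads held these bases, so that the share lacking them was 21% (14.2 to 29.98) and 12.8% (5.60 to 26.7). In this stretch a pair of neighbouring adenosines of 18S is known to carry methyl groups on the base. The bases missing are in capitals. Loss of the TG that begins 1 base later leaves the same sequence, so that the reads do not settle which of these bases were missing.
18S positions 1827 and 1828, chr17:39848167-39848192, plus strand: aggtttccgtagGTgaacctgcggaa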
